A study of Mus musculus with 36 samples.

Results

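The 10 genes described here encode interferons and the chains of their receptors. The ligands are Ifnb1, Ifng, Ifnl2 and Ifnl3, and the receptor chains are Ifnar1, Ifnar2, Ifngr1, Ifngr2, Ifnlr1 and Il10rb. All 10 were found among the 52636 genes of each deposited count table. Their transcripts were followed through 36 RNA sequencing libraries, with the question of which interferon could act in the intestines labelled Ifnar1 KO.

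The study sequenced RNA from mouse embryos with mutations in caspase-8, a protease that starts apoptosis and restrains necroptosis, and in genes of the same death pathways. Whole intestines came from E18.5 embryos, and cultured mouse embryonic fibroblasts (MEFs) are the other material. The D387A change keeps caspase-8 from being cut between its catalytic subunits, and the C362A change removes its catalytic cysteine. Cflar encodes cFLIP, the partner of caspase-8, Mlkl the executioner of necroptosis, Casp1 an inflammatory caspase, and Fadd the adaptor that brings caspase-8 to death receptors.

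The first set of intestines held 6 genotypes: the Mlkl KO controls, Casp8 D387A KI with Mlkl intact, D387A KI with Cflar KO and Mlkl KO, those alleles with Casp1 KO added, and that combination with either Ifnar1 KO or Fadd KO on top. The other set held 4: a separate group of Mlkl KO controls, Casp8 C362A KI with Mlkl KO, the same with Casp1 KO, and the same with Cflar KO in place of Casp1 KO. The MEFs were Mlkl KO or carried Casp8 D387A KI together with Cflar KO and Mlkl KO. Every genotype had 3 libraries and no treatment, and every group but D387A alone was labelled Mlkl KO, so by the labels no group was wild type. Short names leave out Mlkl from here on: D387A, D387A Cflar, D387A Cflar Casp1, D387A Cflar Casp1 Ifnar1, D387A Cflar Casp1 Fadd, C362A, C362A Casp1 and C362A Cflar. Sample titles carry a different number for most D387A genotypes and only the Mlkl KO and D387A Cflar titles share theirs, so genotype cannot be told apart from what the numbers stand for, which the labels do not state. The Mlkl KO intestines were assigned to a set by their titles, which carry a number in the D387A set and none in the C362A set, and every fold against them rests on this inferred assignment. The labels give no sex for the embryos, and sex was not modelled.

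Reads on genes numbered 17943524 to 27721024 per library in the D387A intestines (median 21411893.5), 21757868 to 31052238 in the C362A intestines (median 26901265.5) and 20927014 to 32307629 in the MEFs (median 25608762.5). Markers matched the labelled tissue: Cdx2, a transcription factor of intestinal epithelium, had 3614 to 8535 reads in each intestine and 0 in each MEF library, and the fatty acid binding protein gene Fabp1 was likewise at 0 in the MEFs. Casp1 had 0 to 5 reads in the libraries labelled Casp1 KO and 952 to 3489 in the other intestines. Fadd had 18, 23 and 15 reads in the Fadd KO libraries and 689 to 1299 in the other intestines. Mlkl reads did not vanish in the Mlkl KO groups, with 97, 91 and 107 in the D387A-set controls and 1251, 1376 and 1425 in D387A Cflar Casp1 Fadd, and Cflar KO intestines kept 757 to 1353 Cflar reads. Counts per gene do not show which exons the reads came from.

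Replicate 3 of D387A Cflar Casp1 stood apart from the other 2 libraries of its group. The summed level of 20 interferon response genes (Mx1, Isg15, Ifit1 and others, listed with their results) was 8754 CPM (counts per 1e6 reads) there, against 1553 and 2205 in replicates 1 and 2. Over all genes, chi-square per gene between the counts of a pair of libraries was 69.2 and 70.8 for the pairs with it and 13.2 for the other pair, while replicate 3 of C362A Cflar had 66.2 and 65.6 against 24.3, and replicates 1 and 3 of the C362A Mlkl KO 68.9. Replicate 1 of D387A Cflar Casp1 Ifnar1 had 34.1 and 29.9 against 5.51. Without replicate 3 of C362A Cflar or without this replicate 1, both left out after the data were seen, list counts of their groups moved by at most 1 gene in either direction. Results for the receptor chains, and list counts against Mlkl KO, that move with replicate 3 of D387A Cflar Casp1 are given with and without it. Ratios of ligand reads to its group are also given without it, chosen after the data were seen, and fits of single list genes, most other list counts and the interaction tests are given with it only.

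Interferons are secreted proteins that put cells into an antiviral or inflammatory state. Type I interferons, which include the beta and the many alpha forms, bind a receptor built of IFNAR1 and IFNAR2, type II is IFN-gamma alone and uses IFNGR1 with IFNGR2, and type III, the lambda forms, uses IFNLR1 with IL10RB. The receptors for types I and III both activate ISGF3, a transcription factor complex, so that much the same genes respond to either, while IFN-gamma acts mainly through other DNA elements. The lambda receptor is largely limited to epithelia such as the gut lining, whereas the other receptors are found on most cells.

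Levels per gene are given as RPKM, reads per kilobase of gene and per 1e6 reads of the library, so that genes of different length can be compared. Library totals were scaled by TMM (a weighted trimmed mean of gene ratios) within each set, and levels in different sets were scaled separately. Differences were tested over all genes of a set with the edgeR quasi-likelihood test, and p-values were adjusted by the Benjamini-Hochberg method. A gene was called when its adjusted p was under 0.05 and its log2 fold change was above 1 or below -1. Genes with few reads were left out by a filter, which kept 18360 genes of the D387A set, 19408 of the C362A set and 15465 of the MEFs. It removed all 4 ligands from the D387A set and the MEFs and none of the members from the C362A set. Where a group had 0 reads, a fold is a lower bound against 3 reads over the group, and where it had 1 to 3 reads the ratio is given with its 95% counting interval. Such bounds and intervals cover counting error only.

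Ifnb1, the beta interferon that many cell types release on sensing nucleic acids, had 12, 26 and 11 reads in the D387A Cflar Casp1 Fadd intestines. It had 4, 2 and 8 reads in D387A Cflar Casp1 Ifnar1, 1, 0 and 2 in D387A Cflar Casp1, and 0, 0 and 1 in D387A Cflar. The Mlkl KO and D387A libraries had 0 reads. The Fadd KO libraries thus lay above every other library of the set, and the Ifnar1 KO libraries lay above the controls but overlapped D387A Cflar Casp1 through its replicate 3 alone. In RPKM the order was D387A Cflar Casp1 Fadd at 0.959 ± 0.491 (SD, n = 3), D387A Cflar Casp1 Ifnar1 at 0.262 ± 0.174 and D387A Cflar Casp1 at 0.0626 ± 0.0636. Only the highest of these groups stood clear of its neighbour. Against Mlkl KO, Ifnb1 was at least 14.1-fold higher in D387A Cflar Casp1 Fadd and at least 3.82-fold higher in D387A Cflar Casp1 Ifnar1 (exact permutation p = 0.1 for each, two-sided, the smallest that 3 libraries against 3 can give).

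The lambda interferons, which act on epithelial cells, followed in the same intestines. Ifnl2 had 16, 10 and 6 reads in D387A Cflar Casp1 Fadd, 1, 2 and 7 in D387A Cflar Casp1 Ifnar1, 0, 0 and 1 in D387A Cflar Casp1, and 0 in the other groups of the set. Ifnl3 had 9, 18 and 8 reads in D387A Cflar Casp1 Fadd, 0, 0 and 2 in D387A Cflar Casp1 Ifnar1, and at most 1 read in any other library of the set. Ifnl2 and Ifnl3 are close copies whose reads may be shared, so their sum is also given: 25, 28 and 14 reads in D387A Cflar Casp1 Fadd against 1, 2 and 9 in D387A Cflar Casp1 Ifnar1. The Fadd KO libraries were above every other library for Ifnl3 and for the sum, while for Ifnl2 the lowest Fadd KO library and the highest Ifnar1 KO library overlapped. In RPKM, Ifnl2 stood at 0.67 ± 0.319 (SD, n = 3) in D387A Cflar Casp1 Fadd and 0.199 ± 0.195 in D387A Cflar Casp1 Ifnar1, and Ifnl3 at 0.883 ± 0.415 in D387A Cflar Casp1 Fadd. Against Mlkl KO the summed reads were 57.9-fold higher in D387A Cflar Casp1 Fadd (95% interval 10.1 to 2321, exact permutation p = 0.1, two-sided, no overlap) and 9.83-fold higher in D387A Cflar Casp1 Ifnar1 (1.46 to 420.3, exact permutation p = 0.2, two-sided, groups overlap). Most of the latter came from a single library, replicate 3 with 9 of 12 reads.

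IFN-gamma, the product of T and NK cells and other lymphocytes, was read in a different group. Ifng had 3, 2 and 4 reads in D387A Cflar, and between 0 and 2 in every other library of the D387A set. In D387A Cflar Casp1 Ifnar1 it had 0, 2 and 0 reads, and in D387A Cflar Casp1 Fadd 1, 1 and 0. In RPKM D387A Cflar was the only group of the set above the rest without overlap, at 0.105 ± 0.0293 RPKM (SD, n = 3), a ratio to Mlkl KO of 7.51 (95% interval 1.04 to 329.2, exact permutation p = 0.1, two-sided). With caspase-1 also deleted, Ifng was 8.32-fold lower than in D387A Cflar (1.15 to 364.7, exact permutation p = 0.1, two-sided), or at least 1.88-fold without replicate 3 of D387A Cflar Casp1, which held its only read. With the filter on low counts dropped, neither passed the quasi-likelihood test, with adjusted p 0.162 for D387A Cflar against Mlkl KO (fitted log2 2.57) and 0.159 for the loss of caspase-1 (-2.68). Between Mlkl KO and the Ifnar1 KO intestines both groups were at or under 3 reads, so no fold is given, and a difference in Ifng was not detectable at this depth.

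When the filter on low counts was dropped, the quasi-likelihood test gave Ifnb1 in D387A Cflar Casp1 Fadd against Mlkl KO an adjusted p of 5.41e-05 (5.41e-05 to 0.00207 over the alternatives), Ifnl2 0.00131 and Ifnl3 0.00326, higher in 3 of 3 libraries in each case. Their fitted log2 fold changes of 7.01, 6.41 and 4.52 depend on the count added before taking logs and are not bounds. For D387A Cflar Casp1 Ifnar1 against Mlkl KO the adjusted p was 0.0072 for Ifnb1 (0.0072 to 0.00989 over the alternatives), 0.0306 for Ifnl2 (0.0306 to 0.0538) and 0.0746 for the summed lambda reads, with fitted log2 values of 5.16, 4.69 and 2.93. The same group against D387A Cflar Casp1 passed for neither Ifnb1 (0.181) nor Ifnl2 (0.146), at fitted log2 values of 1.96 and 2.79, and the groups overlapped for both. Both overlaps come from replicate 3 of D387A Cflar Casp1. Without it all Ifnar1 KO libraries lay above, with a counted ratio of 8.62 for Ifnb1 (95% interval 1.31 to 364.5, exact permutation p = 0.2, two-sided, against 4.24 with it) and at least 2.05 for Ifnl2 (p = 0.3). D387A Cflar Casp1 Fadd did pass against D387A Cflar Casp1, with adjusted p 0.000822 for Ifnb1 (0.000822 to 0.0282 over the alternatives), 0.00386 for Ifnl2 and 0.00229 for Ifnl3. The counted ratios there were 15.6 (95% interval 5.05 to 78.5), 30.7 (5.12 to 1248) and 33.5 (5.63 to 1361), without overlap. Without that replicate 3 they were 31.8 (5.45 to 1283), at least 6.93 and at least 7.58.

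**Figure D1:**
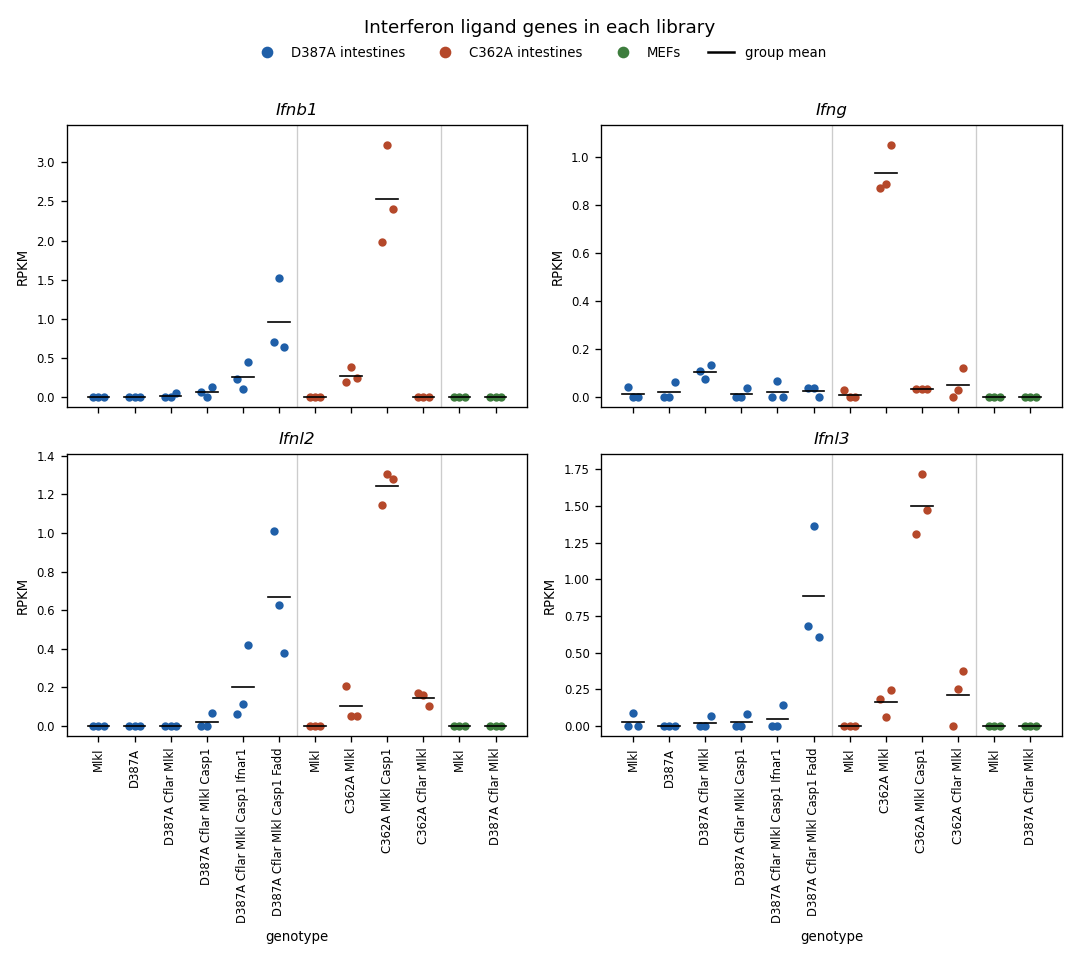
Levels of Ifnb1, Ifng, Ifnl2 and Ifnl3 in RPKM, a panel per gene, with each point a library, a black bar at the mean of the 3 libraries, and colours for the D387A intestines, C362A intestines and MEFs. Ifnb1 and both lambda genes are highest in C362A Casp1 and next in D387A Cflar Casp1 Fadd, and Ifng is highest in C362A, with the sets scaled separately.

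In the C362A intestines the ligands had more reads, and IFN-gamma and beta interferon were again highest in different groups. Ifng had 29, 30 and 35 reads in C362A, 1, 1 and 1 in C362A Casp1, 0, 1 and 4 in C362A Cflar, and 1, 0 and 0 in Mlkl KO. All C362A libraries were far above the others, at 0.933 ± 0.099 RPKM (SD, n = 3), and C362A Cflar, at 0.0506 ± 0.063, did not differ beyond its spread from C362A Casp1. Ifnb1 ran the other way, with 37, 58 and 44 reads in C362A Casp1, 4, 8 and 5 in C362A, and 0 in every C362A Cflar and Mlkl KO library. Its levels of 2.53 ± 0.628 RPKM in C362A Casp1 and 0.271 ± 0.0971 in C362A did not overlap.

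Both lambda genes were also highest in C362A Casp1. Ifnl2 had 20, 22 and 22 reads in C362A Casp1, 4, 1 and 1 in C362A, 3, 3 and 2 in C362A Cflar, and 0 in Mlkl KO. Ifnl3 had 19, 24 and 21 reads in C362A Casp1, 3, 1 and 4 in C362A, 0, 4 and 6 in C362A Cflar, and 0 in Mlkl KO. C362A Casp1 stood clear of the rest at 1.24 ± 0.0859 RPKM for Ifnl2 and 1.5 ± 0.203 for Ifnl3 (SD, n = 3). C362A Cflar, at 0.145 ± 0.0361 and 0.21 ± 0.192, and C362A, at 0.103 ± 0.0895 and 0.165 ± 0.0954, overlapped each other for both genes. Within the C362A set, C362A Cflar alone had lambda reads and no Ifnb1 read in any of 3 libraries.

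The MEFs had 0 reads of all 4 ligands in all 6 libraries. Of 17 other type I interferon genes, none passed the filter in any set. The 14 alpha genes among them had 10 reads in all 36 libraries together, with at most 2 in a library, and 10 of the 14 were at 0 in every library. Ifne, a type I interferon of epithelia, had at most 5 reads in a library, Ifnk at most 3 and Ifnz at most 7, the last in a MEF control library. In D387A Cflar Casp1 Ifnar1, Ifne had 3, 1 and 2 reads against 2, 0 and 0 in Mlkl KO.

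Promoter sequences from RefSeq (GRCm38.p6) were available for 9 of the 10 members. Those of Ifnb1 and Ifng are shown because their reads were highest in different genotypes. Capitals mark matches on the strand of the gene to a core of IRF sites (AANNGAAA), the NF-κB consensus, the GAS element of IFN-gamma response genes (TTCNNNGAA) or a TATA box (TATAAA), all searched on both strands. The Ifnb1 stretch is chr4:88522850-88522994 on the minus strand, 200 to 56 bases before the RefSeq start of the gene (20 bases upstream of the start in the annotation of the counts), and the Ifng stretch is chr10:118440896-118441045 on the plus strand, 150 to 1 bases before its start.
Ifnb1: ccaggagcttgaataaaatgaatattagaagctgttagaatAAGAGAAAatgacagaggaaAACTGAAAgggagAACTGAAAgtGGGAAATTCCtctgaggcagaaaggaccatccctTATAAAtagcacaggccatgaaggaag
Ifng: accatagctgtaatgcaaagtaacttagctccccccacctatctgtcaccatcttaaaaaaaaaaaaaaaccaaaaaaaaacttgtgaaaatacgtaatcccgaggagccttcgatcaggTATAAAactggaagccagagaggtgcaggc
The Ifnb1 stretch held 3 IRF cores (from 159, 139 and 126 bases before the RefSeq start), 1 NF-κB match (from 116 bases) and 1 TATA box, none overlapping, and no GAS element. The Ifng stretch held a TATA box 30 bases before the start and none of the other motifs. Among the same 145 bases of 27025 promoters, 13.2% held an IRF core, 2.21% the NF-κB consensus, 6.74% a TATA box and 4.18% a GAS element, and for the 150 bases of the Ifng stretch the shares were 12.5%, 2.26%, 8.08% and 4.17%. These are matches of letters and not measured binding sites.

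Among the receptor chains, Ifnar1, the type I chain labelled as KO in one group, kept part of its reads there. Its level was 9.7, 8.5 and 8.79 RPKM in D387A Cflar Casp1 Ifnar1 (893, 819 and 813 reads), against 21.1, 21.3 and 21.8 in Mlkl KO and 23.1, 23.9 and 22.7 in D387A Cflar Casp1. All 3 of these libraries lay below every other library of the set. The other groups of the set held 20.7 ± 1.07 to 21.5 ± 1.27 RPKM (SD, n = 3), with D387A Cflar Casp1 above them at 23.2 ± 0.649 and the rest overlapping. In the C362A intestines Ifnar1 was 21.8 ± 1.64 in C362A Cflar and 25.1 ± 1.02 to 25.3 ± 1.48 in the other groups, and in the MEFs it was 28.2 ± 1.99 and 29.1 ± 1.74. Ifnar2, its partner chain, had group means of 8.53 ± 0.828 (Mlkl KO) to 10.5 ± 0.502 RPKM (D387A Cflar Casp1 Fadd) in the D387A set. Neighbours in the order overlapped, while these 2 groups at its ends did not. Ifnar2 in the C362A set was 12.4 ± 0.238 in C362A, 11.7 ± 0.66 in C362A Casp1, 10.5 ± 0.134 in C362A Cflar and 9.14 ± 0.725 in Mlkl KO, and only C362A and C362A Casp1 overlapped.

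Ifngr1, the chain that binds IFN-gamma, was among the most abundant members. It was 59.5, 58.1 and 59.2 RPKM in Mlkl KO, 102, 127 and 96 in D387A Cflar, 61.9, 63 and 102 in D387A Cflar Casp1, 102, 118 and 120.4 in D387A Cflar Casp1 Ifnar1, and 102, 92.6 and 86.6 in D387A Cflar Casp1 Fadd. Replicate 3 of D387A Cflar Casp1 lay with the higher groups and its other replicates near the controls, so all neighbours in the order overlapped. In the C362A set the 3 mutant groups held 120.3 ± 4.19, 128 ± 9.21 and 134 ± 11.7 RPKM (C362A, C362A Casp1 and C362A Cflar, overlapping) against 73.7 ± 6.33 in Mlkl KO, with every mutant library above every control. In the D387A set Ifngr2, the other chain of that receptor, was lowest in D387A Cflar at 51.6, 45.7 and 47.9 RPKM. It reached 65.8, 103 and 101 in D387A Cflar Casp1 Ifnar1, against 73.1, 68.9 and 63.7 in Mlkl KO. Replicate 1 of the Ifnar1 KO group sat among the controls, so those groups overlapped, and only D387A Cflar stood clear of its neighbour. MEFs had less of both chains, at 21.4 ± 0.792 to 25.1 ± 1.73 RPKM.

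Ifnlr1, the chain that makes a cell responsive to lambda interferon, was lowest of the D387A set in D387A Cflar. Its level was 10.1, 9.72 and 9.78 RPKM in Mlkl KO, 3.19, 2.25 and 2.5 in D387A Cflar, 7.18, 8.78 and 8.19 in D387A Cflar Casp1, 7.24, 7 and 6.69 in D387A Cflar Casp1 Ifnar1, and 9.8, 9.57 and 11.8 in D387A Cflar Casp1 Fadd. The order fell into 3 tiers: D387A, D387A Cflar Casp1 Fadd and Mlkl KO overlapped at the top, D387A Cflar Casp1 and D387A Cflar Casp1 Ifnar1 overlapped in the middle, and D387A Cflar lay below all. Among the C362A intestines Ifnlr1 was 16.3, 18 and 22 RPKM in Mlkl KO, 18, 19 and 16.2 in C362A Casp1, 13.4, 11.5 and 11.9 in C362A, and 5.15, 4.47 and 6.31 in C362A Cflar. Only Mlkl KO and C362A Casp1 overlapped. MEFs held 0.126 ± 0.0462 and 0.0951 ± 0.0469 RPKM (5 to 24 reads), so the lambda receptor chain was near absent from the fibroblasts.

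Il10rb, the chain that the lambda receptor shares with those for IL-10 and IL-22, moved as Ifnlr1 did. It was 84.4, 83.5 and 77.6 RPKM in Mlkl KO, 28.4, 25.3 and 28.4 in D387A Cflar, 56.7, 67 and 49.6 in D387A Cflar Casp1, 50.5, 46 and 51.5 in D387A Cflar Casp1 Ifnar1, and 87.5, 79.9 and 82 in D387A Cflar Casp1 Fadd. D387A, at 94.7 ± 4.73 (SD, n = 3), was above Mlkl KO and D387A Cflar Casp1 Fadd, which overlapped, then came D387A Cflar Casp1 and D387A Cflar Casp1 Ifnar1, which also overlapped, and D387A Cflar was lowest. Among the C362A intestines it was 96.3 ± 9.19 in Mlkl KO and 99.6 ± 1.79 in C362A Casp1, which overlapped, 55.4 ± 4.25 in C362A and 35.6 ± 2.4 in C362A Cflar. The MEFs held 14 ± 0.984 and 12.8 ± 1.17 RPKM.

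**Figure D2:**
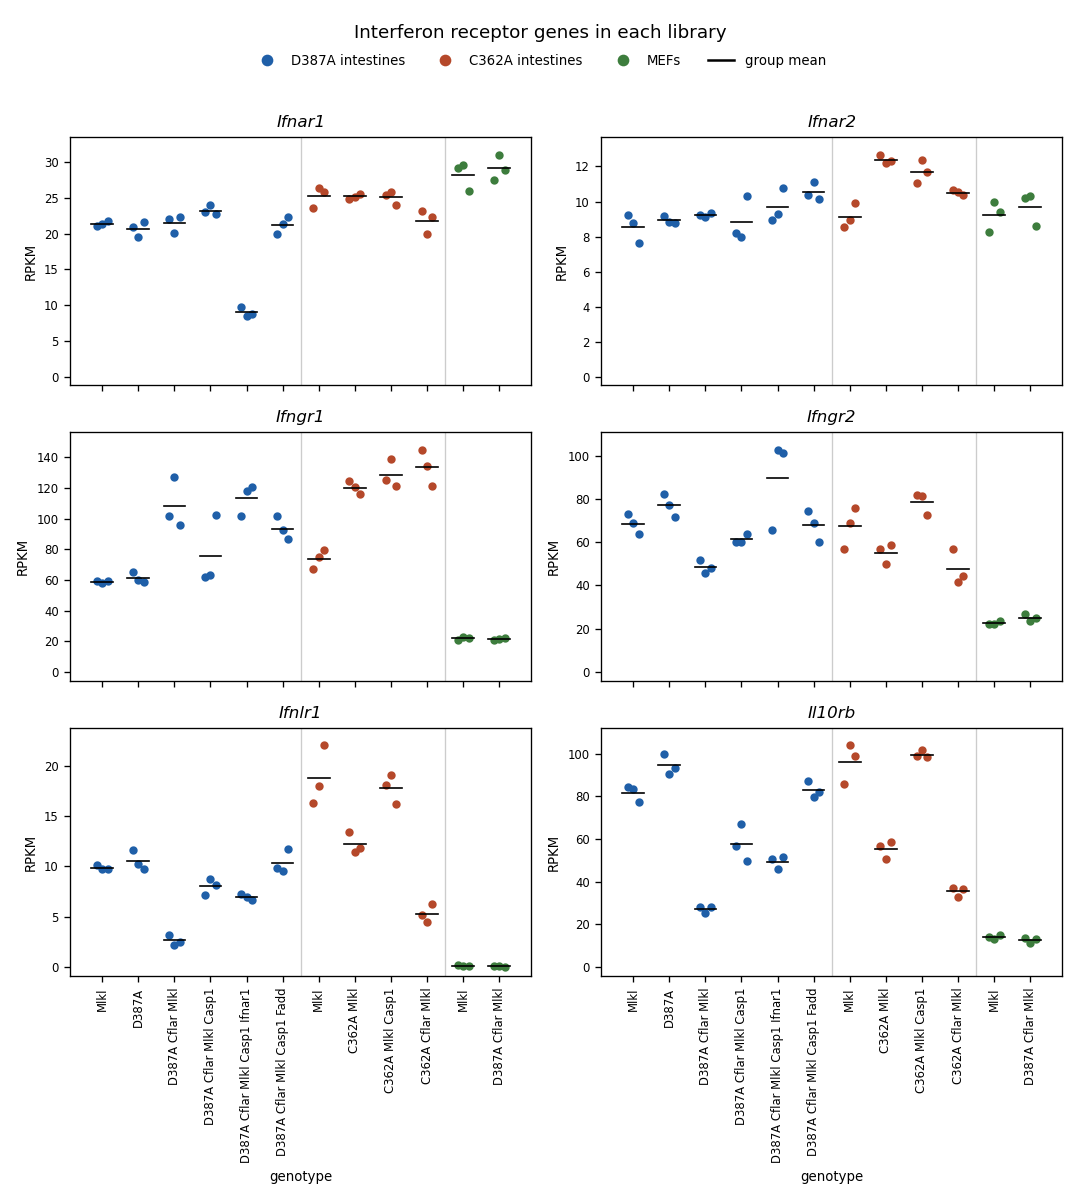
Levels of the 6 receptor chains in RPKM, a panel per gene, with each point a library and a black bar at the mean of the 3 libraries. Among the intestines, Ifnlr1 and Il10rb are lowest in D387A Cflar and C362A Cflar, each within its set, and both are lower still in the MEFs. Ifnar1 is lowest in D387A Cflar Casp1 Ifnar1.

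D387A alone left the members near the controls. Il10rb had the smallest p, with log2 0.21 (SE 0.093, unadjusted p = 0.0378, adjusted p = 0.966) and all 3 libraries above the 3 controls. Of 6 members tested by edgeR and limma-voom and 10 by DESeq2, which tested the ligands as well, 0 were called and 0 passed the adjusted p at any fold, while 1 had an unadjusted p under 0.05 by each tool. Among all genes tested 0% were called higher, 0.00545% were called lower and 0.00545% passed the adjusted p at any fold.

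D387A Cflar intestines had less of both lambda receptor chains and more of the chain that binds IFN-gamma. Against Mlkl KO, Ifnlr1 fell by 1.90 on the log2 scale (SE 0.12, adjusted p = 6.47e-10) and Il10rb fell by 1.58 (SE 0.096, 4.04e-10), each lower in 3 of 3 libraries. Ifngr1 rose by log2 0.88 (SE 0.154, 9.63e-05, higher in 3 of 3) and Ifngr2 fell by 0.50 (SE 0.132, 0.00329, lower in 3 of 3), both short of the fold needed for a call. Ifnar1 and Ifnar2 were at log2 0.01 and 0.11 (adjusted p 0.933 and 0.343). Of the 6 members tested, 0 were called higher and 2 lower, where 9.4% and 12.8% of all genes were, and 4 passed the adjusted p at any fold, where 59.4% did. This share is near that of all genes.

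Both lambda receptor chains were higher in D387A Cflar Casp1 than in D387A Cflar, groups whose titles carry different numbers. Epithelial marker sums, listed with the other markers, were higher as well, at group means of 13040 and 8232 CPM, while of the 15 markers 3 were called higher and 1 lower (median log2 0.10), or 3 and 3 (-0.09) without replicate 3 of D387A Cflar Casp1. In D387A Cflar Casp1 against D387A Cflar, Ifnlr1 rose by log2 1.60 (SE 0.12, adjusted p = 1.43e-08) and Il10rb by 1.08 (SE 0.0951, 1.12e-07), each higher in 3 of 3 libraries. Ifngr1 fell by 0.52 (SE 0.153, 0.0102, groups overlap) and Ifngr2 rose by 0.35 (SE 0.132, 0.0394, higher in 3 of 3). With 2 of 6 members called higher and 0 lower, and 4 at any fold, the backgrounds were 8.88%, 4.51% and 46.9% of all genes. Leaving out replicate 2 of D387A Cflar Casp1 took Il10rb to log2 0.96 and ended its call. Ifngr1 lost its adjusted p without D387A Cflar replicate 2 or D387A Cflar Casp1 replicate 1 or 2, up to 0.0656, and was at -0.80 without the replicate 3 that stood apart, and Ifngr2 lost it in 5 of 6 such runs, up to 0.118. With all libraries kept, adjusted p reached 0.0868 for Ifngr1 and 0.055 for Ifngr2 over the alternatives.

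Compared with Mlkl KO, D387A Cflar Casp1 still had less Il10rb, by log2 -0.50 (SE 0.0935, adjusted p = 0.00132, lower in 3 of 3 libraries). Ifnlr1 was at log2 -0.29 (adjusted p = 0.0732, lower in 3 of 3) and Ifngr1 at 0.36 (0.105, higher in 3 of 3), neither past the threshold. Without replicate 3 of D387A Cflar Casp1, Ifngr1 was at 0.08 (0.651) and Il10rb, still past the threshold, at -0.40. None was called of 6 members tested by edgeR and limma-voom or of 10 tested by DESeq2, and with each tool 1 passed the adjusted p at any fold and 3 had an unadjusted p under 0.05. Over all genes 2.16% were called higher, 2.18% lower, and 21.4% passed at any fold.

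D387A Cflar Casp1 Ifnar1 intestines had less Ifnar1, more Ifngr1 and less of the lambda receptor chains than the controls. Against Mlkl KO, Ifnar1 fell by 1.25 (SE 0.0716, adjusted p = 1.16e-08, lower in 3 of 3 libraries), Il10rb fell by 0.73 (SE 0.0938, 9.95e-06, lower in 3 of 3) and Ifnlr1 fell by 0.50 (SE 0.113, 0.0016, lower in 3 of 3). Ifngr1 rose by log2 0.95 (SE 0.154, 9.58e-05, higher in 3 of 3) and Ifngr2 by 0.39 (SE 0.132, 0.0212, groups overlap). Members called were 0 higher and 1 lower of 6, Ifnar1 itself, and 5 passed at any fold, beside 6.76%, 5.64% and 48.3% of all genes. DESeq2 also called Ifnb1 higher. Ifngr2 lost its adjusted p, up to 0.124, in 4 of 6 runs that left out a library (Mlkl KO replicate 2 or 3, or Ifnar1 KO replicate 2 or 3).

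Against D387A Cflar Casp1, which differs in the labels by Ifnar1 and by the number in the titles, the lambda receptor chains of D387A Cflar Casp1 Ifnar1 did not pass the test with all libraries. Ifnlr1 was at log2 -0.21 (adjusted p = 0.179) and Il10rb at -0.23 (0.0736). Without replicate 3 of D387A Cflar Casp1, Il10rb passed at -0.33 (0.00579) and Ifnar2 at 0.26 (0.0382, against 0.13 and 0.332 with it), while Ifnlr1 did not (0.239). Ifnar1 fell by 1.37 (SE 0.0716, 1.16e-08, lower in 3 of 3 libraries), and both chains of the IFN-gamma receptor rose, Ifngr2 by log2 0.55 (SE 0.132, 0.00577, higher in 3 of 3) and Ifngr1 by 0.58 (SE 0.153, 0.00936, groups overlap). With the 2 groups fitted alone neither Ifngr2 (0.0798) nor Ifngr1 (0.0932) passed. Ifngr1 lost its adjusted p (0.0587 at most) without replicate 1 or 2 of D387A Cflar Casp1, and was at log2 0.86 without its replicate 3. Of 6 members 0 were called higher, 1 lower, and 3 passed at any fold, with backgrounds of 3.28%, 2.03% and 30.6%.

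D387A Cflar Casp1 Fadd intestines, where Ifnb1 and lambda reads were highest in the set, had lambda receptor chains at control level. Against Mlkl KO, Ifnlr1 was at log2 0.07 (adjusted p = 0.714) and Il10rb at 0.02 (0.908), and Ifngr1 rose by log2 0.67 (SE 0.154, 0.00587, higher in 3 of 3 libraries). Ifnar2 rose by 0.31 (SE 0.0988, 0.0398, higher in 3 of 3), which was lost in 5 of 6 runs that left out a library (all but Mlkl KO replicate 1), up to 0.182. Called were 0 of 6 members tested by edgeR and limma-voom and 0 of 10 by DESeq2, and 2 passed at any fold with each tool, while at an unadjusted p under 0.05 there were 2, 2 and 5. All genes tested had 2.81% called higher, 0.975% lower and 18.4% passing at any fold.

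Against D387A Cflar Casp1, lambda receptor chains were higher in D387A Cflar Casp1 Fadd. Il10rb rose by log2 0.53 (SE 0.0934, adjusted p = 0.00103, higher in 3 of 3 libraries) and Ifnlr1 by 0.37 (SE 0.113, 0.0312, higher in 3 of 3), the latter lost without D387A Cflar Casp1 replicate 1 or Fadd KO replicate 3 (0.147 at most) and with the 2 groups fitted alone (0.109). Without replicate 3 of D387A Cflar Casp1, Ifngr1 passed at log2 0.58 (0.00087, against 0.31 and 0.183 with it) and Ifnar2 at 0.38 (0.00655, against 0.26 and 0.0811), and 1 member, not a receptor chain, was called. Of 6 members tested by edgeR and limma-voom, as of 10 by DESeq2, none was called and 2 passed at any fold, with 3, 4 and 7 at an unadjusted p under 0.05. Over all genes 2.56% were called higher, 0.877% lower, and 17.9% passed at any fold. The 5 comparisons with Mlkl KO share those controls, and the comparisons with D387A Cflar Casp1 share its libraries.

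C362A intestines had IFN-gamma, beta and lambda reads that the Mlkl KO controls had next to none of. Ifng was 89.3-fold higher (95% interval 15.6 to 3563, adjusted p = 9.17e-06), Ifnb1 at least 5.38-fold (0.00202), Ifnl2 at least 1.90-fold (0.0201) and Ifnl3 at least 2.53-fold (0.0367), each higher in 3 of 3 libraries. The fitted log2 of Ifng was 6.025, and 5.51 to 7.88 with a library left out. Il10rb fell by 0.80 (SE 0.106, 3.04e-05) and Ifnlr1 fell by 0.62 (SE 0.139, 0.00235), lower in 3 of 3. Ifngr1 rose by log2 0.71 (SE 0.115, 0.00018) and Ifnar2 by 0.44 (SE 0.0934, 0.00156), higher in 3 of 3. Of 10 members 4 were called higher, 0 lower and 8 passed at any fold, beside 10.4%, 7.55% and 42.1% of all genes. All 4 calls were ligands, which passed the filter only through C362A or C362A Casp1, the groups in which they were high, so counts of ligand calls in this set cannot be read against the share of all genes. Of the 6 receptor chains 0 were called here and 4 passed at any fold. Ifnl2 lost its call without Mlkl KO replicate 2 or C362A replicate 1 (adjusted p up to 0.1246), and Ifnl3 in 5 of 6 runs that left out a library (all but C362A replicate 2, up to 0.0996).

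Caspase-1 loss on the C362A background reversed the balance of ligands. Against C362A, C362A Casp1 had 27.6-fold less Ifng (95% interval 9.15 to 136, adjusted p = 5.92e-05), 9.29-fold more Ifnb1 (5.6 to 16.4, 0.000182), 12.1-fold more Ifnl2 (5.27 to 34.3, 0.000186) and 9.09-fold more Ifnl3 (4.35 to 22, 0.00194), without overlap in any of these. The lambda receptor chains rose too, Il10rb by log2 0.85 (SE 0.107, 4.03e-05) and Ifnlr1 by 0.54 (SE 0.139, 0.00873), and Ifngr2 by 0.51 (SE 0.142, 0.0134), each higher in 3 of 3 libraries. The epithelial marker sum had group means of 23490 CPM in C362A Casp1 and 11380 in C362A, with 3 of 15 markers called higher and 0 lower. Called were 3 of 10 members higher and 1 lower, with 7 at any fold, against 5.6%, 5.72% and 33.5% of all genes. All of these calls were ligands, whose counts cannot be read against those shares, and no receptor chain was called. The receptor chains that passed at any fold were Il10rb, Ifnlr1 and Ifngr2. Ifngr2 lost its adjusted p (0.0596 at most) without replicate 2 of either group.

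C362A Casp1 against Mlkl KO had at least 50-fold more Ifnb1 (adjusted p = 1.36e-05) and at least 23-fold more Ifnl2 (2.5e-05) and Ifnl3 (0.000198), higher in 3 of 3 libraries each. Ifng, with 3 reads against 1, gives no fold (adjusted p = 0.411). Ifngr1 rose by log2 0.80 (SE 0.115, 0.00013) and Ifnar2 by 0.36 (SE 0.0936, 0.00938), higher in 3 of 3, while Ifnlr1 and Il10rb were at -0.08 (0.682) and 0.05 (0.745). Members called numbered 3 higher and 0 lower of 10, and 5 passed at any fold, beside 6.79%, 3.73% and 36% of all genes. The calls were again all ligands, which cannot be read against those shares, and no receptor chain was called. Ifnar2 lost its adjusted p (0.0747 at most) without Mlkl KO replicate 1 or 2 or C362A Casp1 replicate 2.

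C362A Cflar intestines had lambda reads with less of the lambda receptor. Against Mlkl KO, Ifnlr1 fell by 1.82 (SE 0.144, adjusted p = 1.34e-07) and Il10rb fell by 1.44 (SE 0.108, 8.75e-08), lower in 3 of 3 libraries each. Ifnl2 was at least 2.67-fold higher (0.00687, 3 of 3) and Ifnl3 at least 3.34-fold (0.0169), though 1 of 3 Ifnl3 libraries had 0 reads and the call ended without C362A Cflar replicate 3 (0.0559). Ifngr1 rose by log2 0.86 (SE 0.115, 2.3e-05, 3 of 3), and Ifngr2 fell by 0.50 (SE 0.142, 0.00899, lower in 3 of 3, 0.0501 without Mlkl KO replicate 3). Ifng had a ratio of 5 (95% interval 0.56 to 237, adjusted p = 0.169). Of 10 members 2 were called higher, 2 lower and 6 passed at any fold, beside 13.4%, 11.2% and 52.8% of all genes. The calls higher were ligands, which cannot be read against those shares, and the calls lower were Ifnlr1 and Il10rb.

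C362A Cflar against C362A had less beta and gamma interferon and less lambda receptor, while no difference in lambda reads was shown. Ifng was 17.8-fold lower (95% interval 7.38 to 56.2, adjusted p = 0.000339) and Ifnb1 at least 5.38-fold lower (0.00608), each in 3 of 3 libraries. The fitted log2 of Ifng was -4.06, and -5.56 to -3.55 with a library left out. Ifnlr1 fell by 1.20 (SE 0.142, 0.000161) and Il10rb fell by 0.64 (SE 0.107, 0.00113), lower in 3 of 3. Ifnl2 and Ifnl3 had ratios of 1.41 (0.427 to 4.91) and 1.32 (0.468 to 3.84), with adjusted p 0.706 and 0.797 and overlapping groups. Members called were 0 higher and 3 lower of 10, with 4 at any fold, beside 1.45%, 4.62% and 19.4% of all genes. Of these calls Ifng and Ifnb1 were ligands, which cannot be read against those shares, and Ifnlr1 was the only receptor chain called. The 3 comparisons with Mlkl KO share those controls.

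In MEFs the same D387A Cflar genotype left the receptor chains where they were. Ifngr2 had the smallest p, with log2 0.15 (SE 0.0657, unadjusted p = 0.0453, adjusted p = 0.755) and 3 of 3 libraries above the controls, and Ifnlr1, at log2 -0.47 (0.923), rests on 27 reads against 46. None of 6 members tested was called or passed at any fold by edgeR, limma-voom or DESeq2, and 1, 1 and 0 had an unadjusted p under 0.05. All genes tested had 0.0711% called higher, 0% lower and 0.11% passing at any fold.

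The size of these effects was compared between sets by an interaction test, the difference of 2 log2 fold changes. The rise of Ifnlr1 with caspase-1 loss was larger in D387A Cflar than in C362A, by log2 1.09 (SE 0.186, adjusted p = 0.00044), and the change of Ifngr1, a fall in D387A Cflar and log2 0.09 in C362A (adjusted p = 0.563), differed by -0.59 (SE 0.197, 0.0408). With the replicate number as a block Ifngr1 no longer passed (0.0583). Il10rb (0.26, adjusted p = 0.193) and the ligands did not pass, so that a difference in the response of Ifng or Ifnb1 to caspase-1 loss was not shown. These 2 of 10 members compare with 16.9% of all genes, while limma-voom passed 3, Ifnl2 (-2.85, 0.0332, against -1.48 and 0.815 with edgeR) among them, and the D387A pair lacked Cflar where the C362A pair had it. Between D387A Cflar intestine and MEFs, 4 of 6 members passed, beside 38.4% of all genes: Il10rb (-1.43, SE 0.131, 3.04e-08), Ifnlr1 (-1.35, SE 0.397, 0.00986), Ifngr1 (0.95, SE 0.199, 0.000648) and Ifngr2 (-0.63, SE 0.167, 0.00461).

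Downstream of the receptors, the ISGF3 list, 20 genes known to respond to type I and type III interferon, was high in the intestines labelled Ifnar1 KO. Its members are Mx1, Mx2, Oas1a, Oas2, Oas3, Oasl1, Oasl2, Isg15, Ifit1, Ifit2, Ifit3, Ifit3b, Rsad2, Ifi44, Usp18, Irf7, Rtp4, Ifi27l2a, Cmpk2 and Xaf1. Their summed level was 8152, 9497 and 11120 CPM in D387A Cflar Casp1 Ifnar1, 439.8, 819.5 and 474.8 in Mlkl KO, and 14780, 15400 and 14560 in D387A Cflar Casp1 Fadd. D387A Cflar, with 2298, 1443 and 2309 CPM, was lower, and D387A Cflar Casp1 held 1553, 2205 and 8754. The Ifnar1 KO libraries were all above the controls and above 2 of the 3 D387A Cflar Casp1 libraries, and the Fadd KO libraries were above all others of the set.

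Isg15, a ubiquitin-like protein of the antiviral response, had 19519, 28378 and 31949 reads in D387A Cflar Casp1 Ifnar1, 2511, 3125 and 19926 in D387A Cflar Casp1, and 350, 701 and 430 in Mlkl KO. Against Mlkl KO, 20 of 20 list genes were called higher in D387A Cflar Casp1 Ifnar1 (median log2 4.28, all-gene median 0.00), for example Mx1 by log2 5.92 (adjusted p = 1.47e-06) and Oas3 by 5.98 (1.43e-05). The same comparison for D387A Cflar Casp1 Fadd gave 20 higher (median 5.27), for D387A Cflar Casp1 19 (3.14), for D387A Cflar 18 (2.23) and for D387A alone 0 (-0.06), with none lower in any of them. Without replicate 3 of D387A Cflar Casp1, 15 were higher against Mlkl KO (median 2.13).

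No gene of the ISGF3 list was called lower in the Ifnar1 KO intestines, whose titles carry another number. Against D387A Cflar Casp1, D387A Cflar Casp1 Ifnar1 had 6 genes called higher and 0 lower (median log2 1.11, all-gene median 0.00), among them Irf7 (1.62, adjusted p = 0.0322), Usp18 (1.52, 0.0273) and Ifit2 (1.51, 0.0336), and Isg15, at 1.47, did not pass (0.0705). Without the replicate 3 that stood apart the count was 19 higher and 0 lower (median 2.37), with no share of all genes given for that run. D387A Cflar Casp1 Fadd against D387A Cflar Casp1 had 17 higher and 0 lower (median 1.82), and 20 higher without that library (3.05). D387A Cflar Casp1 against D387A Cflar turned with it, from 9 higher and 1 lower (median 0.97) to 1 higher and 4 lower (-0.37).

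The mutant C362A intestines held the same list above their controls too. Summed levels were 9437, 9907 and 11510 CPM in C362A, 19360, 20620 and 18060 in C362A Casp1, 4341, 3785 and 6043 in C362A Cflar, and 225.2, 351.1 and 497.8 in Mlkl KO, without overlap between any of the groups. All 20 genes were called higher than in Mlkl KO in C362A (median log2 5.43), C362A Casp1 (6.41) and C362A Cflar (4.39). C362A Casp1 had 10 higher and 0 lower than C362A (median 0.99), and C362A Cflar had 0 higher and 11 lower (-1.04). In MEFs none of 18 tested list genes was called (median -0.31), and sums were 62.4 to 119 CPM. Medians over all genes lay between -0.03 and 0.03 in these comparisons.

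The IFN-gamma list, 20 genes known to respond strongly to IFN-gamma, several of which also respond to type I interferon, did not have the order of Ifng as a sum. In the D387A set group means were 1425 CPM in D387A Cflar, 1135 in D387A Cflar Casp1 (546.6 and 683.8 in replicates 1 and 2, and 2175 in replicate 3), 3170 in D387A Cflar Casp1 Ifnar1, 2822 in D387A Cflar Casp1 Fadd and 491.8 in Mlkl KO. It holds Cxcl9, Ciita, Gbp2, Gbp2b, Gbp4, Gbp6, Gbp10, Irf1, Irf8, Socs1, Igtp, Irgm1, Irgm2, Iigp1, Ido1, H2-Ab1, H2-Eb1, Cd74, Ubd and Batf2. Cxcl9, a chemokine that draws T cells, had 2076, 1104 and 2372 reads in D387A Cflar, 45, 30 and 120 in D387A Cflar Casp1, 64, 98 and 93 in D387A Cflar Casp1 Ifnar1, 23, 39 and 24 in D387A Cflar Casp1 Fadd, and 9, 5 and 4 in Mlkl KO. It had 5747, 5290 and 5756 reads in C362A, 81, 102 and 83 in C362A Casp1, and 915, 812 and 1222 in C362A Cflar. Cxcl9 was thus highest in the groups in which Ifng was highest, D387A Cflar and C362A. Ido1, which breaks down tryptophan, had 177, 88 and 392 reads in D387A Cflar, 3, 12 and 6 in D387A Cflar Casp1 Ifnar1 and 0 in D387A Cflar Casp1 Fadd.

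Ubd, a ubiquitin-like gene of the same list, had another order, with 19821, 40975 and 44058 reads in D387A Cflar Casp1 Ifnar1, 2286, 1245 and 3090 in D387A Cflar, 739, 865 and 13132 in D387A Cflar Casp1, and 3, 4 and 15 in Mlkl KO. Those Ifnar1 KO libraries were the highest of the set. Against Mlkl KO the list had 13 genes called higher and 1 lower in D387A Cflar (median log2 2.49), 12 and 3 in D387A Cflar Casp1 (1.42, or 8 and 4 without its replicate 3, median 0.62), 13 and 1 in D387A Cflar Casp1 Ifnar1 (2.46), 13 and 1 in D387A Cflar Casp1 Fadd (2.40), and 0 and 0 in D387A. With genes at or near 0 reads set to their bound or counted ratio, or left out where both groups were, these medians were 2.49, 1.48, 2.52, 2.77 and 0.06.

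Part of the IFN-gamma list was lower with Casp1 KO in both sets. D387A Cflar Casp1 against D387A Cflar had 0 higher and 6 lower (median log2 -0.71), with Cxcl9 down by -4.69 (adjusted p = 4.07e-08) and Gbp2, a guanylate-binding protein, by -2.70 (2.78e-06), and without replicate 3 of D387A Cflar Casp1 0 higher and 13 lower (-1.29). C362A Casp1 against C362A had 1 higher and 10 lower (-0.99), while the mean summed level of the list was 4178 CPM in the former and 4152 in the latter, with Cxcl9 at -5.79 (1.48e-10) and Gbp2 at -2.97 (5.3e-07). D387A Cflar Casp1 Ifnar1 against D387A Cflar Casp1 had 6 higher and 0 lower (0.86), or 15 and 0 without that library (1.43), and D387A Cflar Casp1 Fadd 8 and 0 (0.62), or 11 and 0 (1.57). Against Mlkl KO the counts were 19 and 0 in C362A (5.03), 14 and 1 in C362A Casp1 (3.19, bounded 3.57) and 13 and 1 in C362A Cflar (3.55), and C362A Cflar against C362A had 0 and 15 (-1.47). In MEFs 0 of 13 tested were called (0.20).

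**Figure D3:**
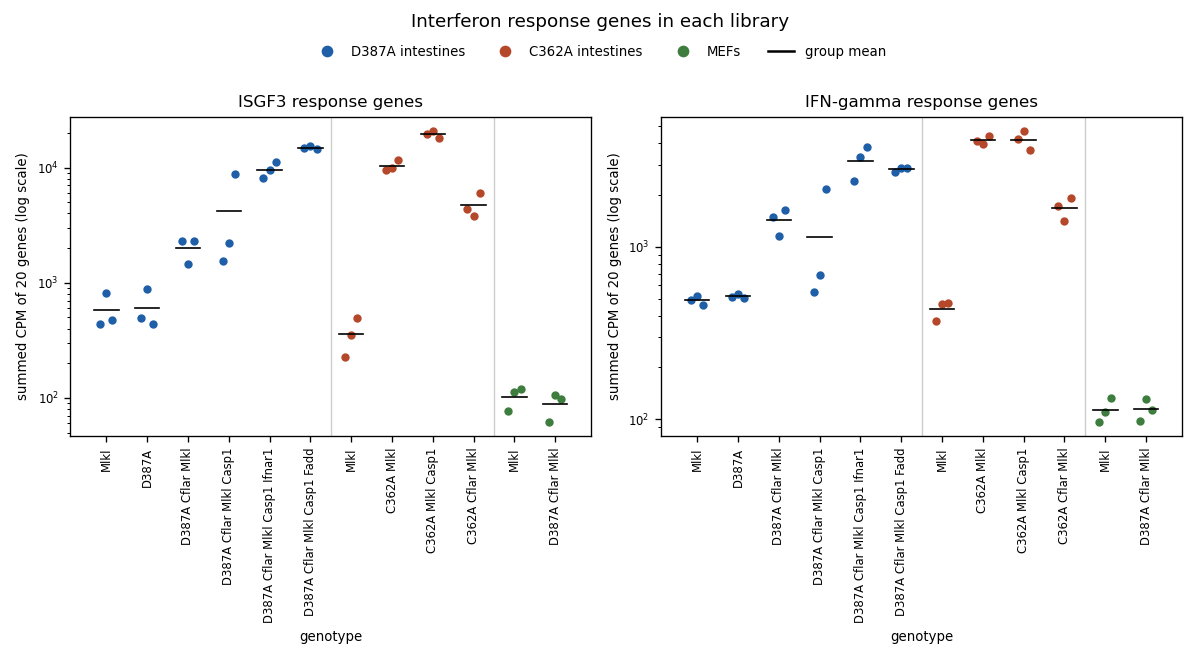
Summed level of the 20 ISGF3 genes and of the 20 IFN-gamma genes in each library, in CPM on a log axis, with a black bar at the mean of the 3 libraries. D387A Cflar Casp1 Ifnar1 is high in both panels, and replicate 3 of D387A Cflar Casp1 (8754 CPM in the ISGF3 panel) lies far from the other libraries of its group.

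Stat2 and Irf9 carry the signal of the type I and type III receptors to the nucleus. Stat2 was called higher than in Mlkl KO in D387A Cflar Casp1 Ifnar1, by log2 1.05 (adjusted p = 0.00138), and both genes were in D387A Cflar Casp1 Fadd (1.89 and 1.26), C362A (1.66 and 1.55) and C362A Casp1 (2.15 and 2.08). Among 6 inhibitors of signalling from the receptors (Socs1, Socs3, Usp18, Ptpn2, Ptpn6 and Pias1), Usp18, which blocks the type I receptor, and Socs1 were called higher than Mlkl KO in D387A Cflar Casp1 Ifnar1 (4.67 and 2.19), D387A Cflar Casp1 Fadd (5.40 and 2.77), D387A Cflar Casp1 (3.16 and 1.35), C362A (5.68 and 3.47) and C362A Casp1 (6.71 and 2.81). Without replicate 3 of D387A Cflar Casp1 only 1 of the 6 was called in that group. The same genes and Socs3 were called higher in D387A Cflar (2.20, 1.62 and 1.44) and C362A Cflar (4.48, 1.64 and 1.03), and Socs3 fell with caspase-1 loss in D387A Cflar (-1.18) and in C362A (-1.46).

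Sensors, adaptors and factors that lead to transcription of interferon genes form a list of 18 (Irf1, Irf3, Irf5, Irf7, Mb21d1, Tmem173, Ddx58, Ifih1, Mavs, Tbk1, Ikbke, Ticam1, Tlr3, Tlr7, Tlr9, Myd88, Zbp1 and Dhx58). D387A Cflar Casp1 Ifnar1 had 11 higher and 0 lower than Mlkl KO, with Zbp1, a sensor of Z-form nucleic acids, at log2 4.86 (adjusted p = 6.12e-05), Irf7 at 3.59 (9.73e-05) and Dhx58 at 3.37 (3.82e-05). The counts were 10 and 0 in D387A Cflar Casp1 Fadd, 4 and 0 in D387A Cflar Casp1 (1 and 0 without its replicate 3), 9 and 1 in D387A Cflar, 13 and 1 in C362A, 12 and 0 in C362A Casp1, 11 and 2 in C362A Cflar, and 0 and 0 in D387A. D387A Cflar Casp1 Ifnar1 against D387A Cflar Casp1 had 4 and 0, or 7 and 0 without that library. Irf7, Usp18, Irf1 and Socs1 each stand in 2 of these lists. Tmem173, which encodes the DNA sensing adaptor STING, fell with caspase-1 loss in D387A Cflar (-1.34, 2.16e-06) and in C362A (-1.70, 1.06e-06). In MEFs 0 of 17 tested were called.

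Cytokines and receptors that lead lymphocytes to make IFN-gamma form a list of 12 (Il12a, Il12b, Il18, Il15, Il15ra, Il12rb1, Il12rb2, Il18r1, Il18rap, Il27, Ebi3 and Il21), of which 8 were tested in the D387A and 10 in the C362A intestines. D387A Cflar had 4 higher and 1 lower than Mlkl KO, Il12rb1 (log2 1.93), Il12rb2 (2.22) and Il18rap (1.30) among the former and Il18 (-1.05) the latter. Of all genes 9.4% were called higher and 12.8% lower in that comparison. D387A Cflar Casp1 had none (1 lower without its replicate 3), and D387A Cflar Casp1 Ifnar1 and D387A Cflar Casp1 Fadd 1 each, Il18rap (1.01) and Il12rb1 (2.37). C362A had 8 higher and 0 lower, C362A Casp1 4 and 0, C362A Cflar 6 and 0, and C362A Casp1 against C362A 0 and 6, with Il18rap at -2.45 and Il27 at -2.58. Il12b, a subunit of IL-12, had 11, 11 and 10 reads in C362A and 0 in Mlkl KO. Of 8 other genes of the IL-10 and IL-22 systems that use Il10rb (Il10, Il10ra, Il22, Il22ra1, Il22ra2, Il19, Il20 and Il24), 2 were tested in the intestines. Il22ra1, the IL-22 receptor chain of epithelium, fell by 1.05 in D387A Cflar and by 1.14 in C362A Cflar against Mlkl KO, and Il10ra rose by log2 2.28 in C362A and 1.40 in C362A Cflar. Il10 had at most 9 reads in any library and Il22 at most 4.

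Marker lists of cell types moved with these genotypes, and in bulk RNA fewer cells of a type and less RNA per cell cannot be told apart. Epithelial markers (15 genes, Fabp2 the most abundant) summed to 19880, 19530 and 18340 CPM in Mlkl KO, 8432, 8486 and 7777 in D387A Cflar, 11560, 13490 and 14060 in D387A Cflar Casp1, 12850, 14410 and 14750 in D387A Cflar Casp1 Ifnar1, and 19230, 18790 and 17800 in D387A Cflar Casp1 Fadd. The sums of the C362A set were 16980, 20870 and 23380 in Mlkl KO, 12120, 9990 and 12030 in C362A, 21470, 24320 and 24670 in C362A Casp1, and 9185, 8150 and 9076 in C362A Cflar. The groups with the lowest sums were those with the lowest Ifnlr1 and Il10rb. Called against Mlkl KO were 3 higher and 3 lower of 15 in D387A Cflar, 0 and 1 in D387A Cflar Casp1, 2 and 2 in D387A Cflar Casp1 Ifnar1, 1 and 0 in D387A Cflar Casp1 Fadd, 2 and 3 in C362A, 1 and 0 in C362A Casp1 and 3 and 3 in C362A Cflar. None of the 15 markers was at 0 in any intestine, and their part in the result was not tested.

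T and NK cell markers (24 genes, 17 tested in the D387A and 20 in the C362A intestines) had 5 higher and 3 lower than Mlkl KO in D387A Cflar, 0 and 4 in D387A Cflar Casp1 (0 and 5 of 19 tested without its replicate 3), 1 and 2 in D387A Cflar Casp1 Ifnar1, 0 and 0 in D387A Cflar Casp1 Fadd, 13 and 2 in C362A, 2 and 0 in C362A Casp1 and 9 and 1 in C362A Cflar. The 3 lower in D387A Cflar include Il7r (log2 -1.42, adjusted p = 0.000927) and Trdc (-2.10, 0.0125). Sums of this list, led by the same gene in every library, are not listed. They were lower than in Mlkl KO without overlap in D387A Cflar, D387A Cflar Casp1, D387A Cflar Casp1 Ifnar1 and D387A Cflar Casp1 Fadd. Gzma, a granule protease of these cells, had 357, 260 and 497 reads in D387A Cflar, 29, 37 and 49 in D387A Cflar Casp1, 55, 103 and 90 in D387A Cflar Casp1 Ifnar1, 99, 62 and 63 in Mlkl KO, and 1033, 1002 and 978 in C362A. Prf1, the pore protein perforin, had 65, 75 and 83 reads in D387A Cflar and at most 4 in any other library of that set. Cd3e, a defining T cell chain, had at most 11 reads in any library. No gene of the list was at 0 in a whole intestine group, and their part in the levels of Ifng was not tested.

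Neutrophil markers (11 genes, S100a9 the most abundant) summed to 5.5, 24.7 and 9.7 CPM in Mlkl KO, 53.7, 41.8 and 142 in D387A Cflar, 11.4, 14.5 and 21 in D387A Cflar Casp1, 20.6, 30.5 and 27.7 in D387A Cflar Casp1 Ifnar1, and 23.2, 24.7 and 6.15 in D387A Cflar Casp1 Fadd. They reached 332, 401 and 422 in C362A and 280.4, 265 and 178 in C362A Cflar, against 21.1, 23 and 19.4 in C362A Casp1 and 13.6, 13.9 and 34.1 in Mlkl KO. Of 10 tested, 7 were called higher and 1 lower than Mlkl KO in D387A Cflar, 4 and 2 in D387A Cflar Casp1 Ifnar1, 7 and 0 in C362A, 7 and 0 in C362A Cflar and 0 and 1 in C362A Casp1, and 1 gene of the list was at 0 throughout D387A Cflar and D387A Cflar Casp1 Ifnar1. Macrophage and monocyte markers (12 genes, Csf1r the most abundant) summed to 509, 497 and 471 CPM in Mlkl KO, 515, 477 and 642 in D387A Cflar, 510.1, 488 and 808 in D387A Cflar Casp1, 731, 835 and 839 in D387A Cflar Casp1 Ifnar1, and 593, 566 and 562 in D387A Cflar Casp1 Fadd. The Ifnar1 KO libraries were among the highest of the set and replicate 3 of D387A Cflar Casp1 lay with them. In the C362A set the sums were 424, 489 and 502 in Mlkl KO, 942, 923 and 938 in C362A, 659, 716 and 681 in C362A Casp1, and 674, 752 and 608 in C362A Cflar. Macrophage genes called higher than Mlkl KO were 4 of 12 in D387A Cflar (1 lower), 3 in D387A Cflar Casp1 (2 without its replicate 3), 4 in D387A Cflar Casp1 Ifnar1, 0 in D387A Cflar Casp1 Fadd, 9 in C362A, 3 in C362A Casp1 and 9 in C362A Cflar (1 lower).

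Plasmacytoid dendritic cells, known as strong producers of type I interferon, were read by 8 markers, of which the most abundant, Tcf4, is also high in the MEFs. Siglech, the most specific, had 50, 49 and 35 reads in Mlkl KO, 2, 1 and 4 in D387A Cflar, 12, 18 and 19 in D387A Cflar Casp1, 13, 18 and 10 in D387A Cflar Casp1 Ifnar1, and 28, 37 and 26 in D387A Cflar Casp1 Fadd. Per 1e6 reads, all libraries of D387A Cflar Casp1 Ifnar1 (0.423 to 0.731 CPM) and of D387A Cflar Casp1 Fadd (1.14 to 1.63) lay below all controls (1.75 to 2.57). The list summed to 119, 114 and 134 CPM in Mlkl KO, 214, 164 and 183 in D387A Cflar, 144, 138 and 173 in D387A Cflar Casp1, 212, 252 and 232 in D387A Cflar Casp1 Ifnar1, and 110.1, 137 and 131 in D387A Cflar Casp1 Fadd, and its calls against Mlkl KO were 2 higher and 1 lower, 1 and 2 (0 and 1 without replicate 3 of that group), 1 and 1, and 0 and 0 in the same order. In the C362A set the sums were 119, 115 and 108 in Mlkl KO, 172, 175 and 178 in C362A, 140.2, 111 and 102 in C362A Casp1, and 132, 182 and 207 in C362A Cflar, with calls of 3 and 1, 2 and 0, and 2 and 1. Of 8 smooth muscle markers 0 were called against Mlkl KO in the D387A set, and of 10 fibroblast markers 0 higher and 1 lower, in D387A Cflar (and 1 in D387A Cflar Casp1 without its replicate 3). Their sums in D387A Cflar were above Mlkl KO without overlap, at 7190 to 8982 against 5252 to 5707 CPM for smooth muscle and 4903 to 5049 against 3742 to 4097 for fibroblasts, where the epithelial sums and the lambda receptor chains were lower. In the C362A set C362A Casp1 had 1 muscle marker lower and C362A Cflar 2 higher, and each mutant group had 1 fibroblast marker lower. The part of these lists in the result was not tested.

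Ifnar1 lies on chromosome 16 beside other members, Ifnar2 (91372783 to 91405589), Il10rb (91406164 to 91425834), Ifnar1 itself (91485238 to 91507441) and Ifngr2 (91547072 to 91565623, all GRCm38). Of the 10 tested genes on each side, 1 was called in D387A Cflar Casp1 Ifnar1 against D387A Cflar Casp1, A930006K02Rik at log2 -1.41 (adjusted p = 0.00306), and 10 of the 20 passed the adjusted p at any fold, where 30.6% of all genes did. The called gene is the nearest tested gene before Ifnar1, and Itsn1, the tenth past it, fell by 0.63 (0.000161). Among the 20, 11 were higher and 9 lower, with a median log2 of 0.05. Ifngr2, the second tested gene past Ifnar1, was at 0.55 and Il10rb, on the other side, at -0.23.

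**Figure D4:**
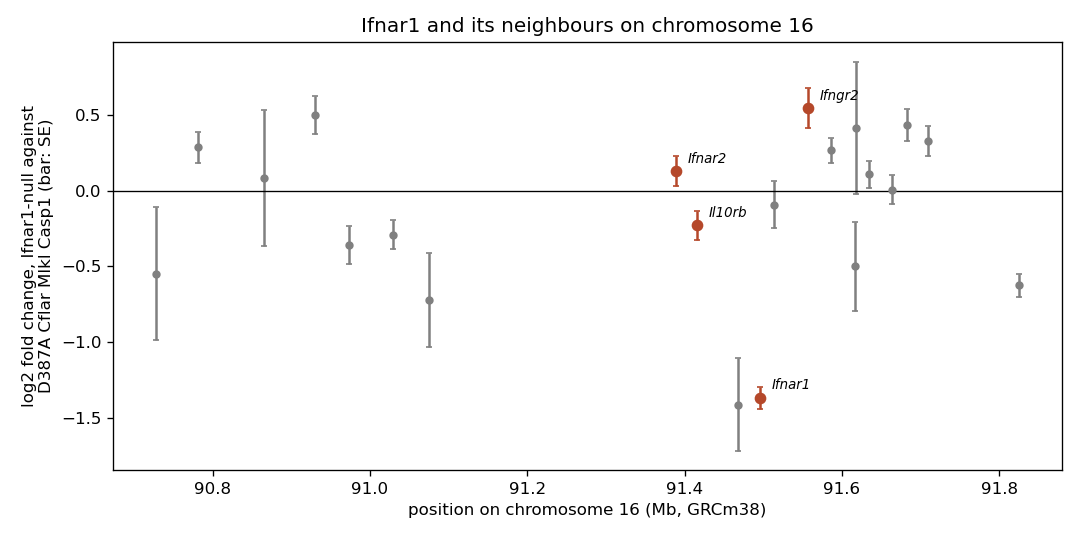
Log2 fold change of Ifnar1 and the 20 nearest tested genes in D387A Cflar Casp1 Ifnar1 against D387A Cflar Casp1, with standard error bars, by position on chromosome 16 (Mb, GRCm38). Ifnar1 is at -1.37 and 11 of the 20 neighbours are above 0.

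The other members lie on chromosome 4 (Ifnb1 at 88522025 to 88522774, Ifnlr1 at 135686287 to 135708181), chromosome 7 (Ifnl2 at 28508836 to 28510455 and Ifnl3 at 28522836 to 28524322) and chromosome 10 (Ifng at 118441046 to 118445892, Ifngr1 at 19591949 to 19610229). Over the 8 mutant intestine genotypes, each relative to the Mlkl KO of its set, Ifnlr1 and Il10rb had similar profiles (Pearson r 0.96, n = 8). Ifngr2 had r 0.79 to Ifnlr1 and 0.76 to Il10rb, and Ifngr1 -0.54 and -0.58. Among 18189 genes tested in both sets, the profiles most like Ifnlr1 were those of Ace (r 0.998), Plekhg6 (0.997) and Prr5l (0.996), and most like Il10rb those of 9230112J17Rik (0.998), Stxbp2 (0.997) and Ganc (0.997). For Ifngr1 they were Ywhah (0.99), Gm13203 (0.98) and Btc (0.975), for Ifngr2 Gabarapl2 (0.99), Tep1 (0.982) and Gm17197 (0.981), and for Ifnar2 Irf8 (0.97), Me3 (0.97) and Kcnj16 (0.969). The 8 points share control libraries within each set, and the values describe likeness only.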

How the data were processed

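RNA was sequenced from 36 libraries, 3 per genotype: intestines of 10 genotype groups and MEFs of 2. Alignment to GRCm38 was done by the authors with GSNAP (the version is stated in the paper), and they deposited read counts per gene, from uniquely aligned reads on exons, with the exonic width of each gene. The deposited tables also give RPKM, which the authors scaled by width and by a library total larger than the sum over genes, and these were not used here. Here the read counts of each set (D387A intestines, C362A intestines, MEFs) were filtered with filterByExpr of edgeR 4.0.16 (R 4.3.3; minimum count 10, minimum total 15), scaled by TMM and tested with glmQLFit and glmQLFTest (prior count 0.125), with Benjamini-Hochberg adjustment over all genes tested, in 14 comparisons and 2 interactions. A call needed an adjusted p under 0.05 and a log2 fold change beyond 1 or -1. The RPKM printed here was computed again from counts, gene width and TMM-scaled library totals. Variation between replicates (edgeR's common BCV) was 0.132 for D387A intestines, 0.162 for C362A intestines and 0.132 for MEFs.

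Alternatives tried were limma-voom (limma 3.58.1), DESeq2 1.42.0, relative log expression scaling, no filter, the 2 groups alone, prior count 2, the replicate number as a block, each library left out, and Ifnl2 and Ifnl3 summed. Replicate numbers were checked for pairing by correlating each library's deviation from its group mean between the groups compared: every r exceeded 0.1 and was best with its own number for D387A against Mlkl KO (0.111, 0.22 and 0.202) and for MEFs (0.27, 0.31 and 0.181), where a block changed no call of a member, and this did not hold elsewhere. The test was also tested on simulated data. Ligands with few reads were compared by exact conditional binomial intervals and exact permutation of CPM.

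Members and lists were chosen with earlier results of these data known. For every list, the shares of all genes called in the same comparison are those given with the members. These shares come from fits with all libraries, so list counts given without a library have no such share beside them. The lists were other type I interferon genes, receptor feedback, interferon induction, cytokines inducing Ifng, users of Il10rb, ISGF3 and IFN-gamma response genes, targeted genes, and markers of T and NK cells, plasmacytoid dendritic cells, macrophages, neutrophils, epithelium, smooth muscle and fibroblasts. Of each, up to 4 genes were named: the largest changes among those called and the most abundant. Ifne, Ifnk, Ifnz, Cdx2, Cd3e, Il7r, Trdc, Il10 and Il22 were singled out after their values were seen, and Stat2 and Irf9 are given singly. Library kits are described differently in the labels and the paper. Proteins were not analysed here.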

Additional observations from a re-analysis of the deposited data

Results flagged for a closer look

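These values were singled out because a change in one pair of groups differed from the change in another pair by the interaction test. For caspase-1 loss, the change in the D387A Cflar intestines less that in the C362A intestines was log2 -0.59 for Ifngr1 and 1.09 for Ifnlr1. The value of Ifngr1 did not pass with the replicate number as a block (adjusted p = 0.0583). For the D387A Cflar genotype against Mlkl KO, the change in intestine less that in MEFs was log2 0.95 for Ifngr1, -0.63 for Ifngr2, -1.35 for Ifnlr1 and -1.43 for Il10rb. Intestine and MEFs differ in tissue, culture and age together, and these cannot be told apart.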

How the results depend on the processing

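No log2 fold change of a member that passed an adjusted p of 0.05 reversed its direction. Of 1483 recomputed log2 fold changes of members, 1394 kept their direction and their side of that threshold, 46 no longer passed it, 10 newly passed it and 33 changed sign without passing before or after. The number of all genes called moved by more than 1.5-fold in 16 of 196 runs. In D387A Cflar Casp1 Ifnar1 against Mlkl KO, 1 member was called, 3 without the filter, 2 with DESeq2 and 2 to 3 when a library was left out. In D387A Cflar Casp1 Fadd against Mlkl KO, 0 were called, 3 without the filter, 1 with Ifnl2 and Ifnl3 summed, 1 with the 2 groups alone and 0 to 1 with a library left out, and the same values held against D387A Cflar Casp1. For D387A Cflar Casp1 against D387A Cflar the count of 2 ranged from 1 to 2 with a library left out. For C362A against Mlkl KO the 4 calls became 1 with the 2 groups alone and 2 to 4 with a library left out, and for C362A Cflar against Mlkl KO 4 became 2 and 3 to 4. In the interaction of caspase-1 loss, the 2 members that passed became 1 with the replicate block, where Ifngr1 had an adjusted p of 0.0583, and 3 with limma-voom, where Ifnl2 passed (0.0332). Without the filter or with the lambda genes summed, genes are tested that the filter leaves out. With the 2 groups alone or a library left out the filter was applied anew, so the genes tested could differ there too. Beyond this the cause was not tested.

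Depth limits the ligands: with 3 libraries per group, a sum of 3 reads equals a CPM of 0.0357 to 0.051. No fold is given where both groups compared had 3 reads or fewer. Counting error alone leaves intervals as wide as 0.56 to 237 for Ifng. Genotype and the number in the sample titles cannot be told apart in the D387A set outside Mlkl KO and D387A Cflar, embryo sex was not modelled, and Ifnl2 and Ifnl3 may share reads.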
